A study of Mus musculus with 24 samples.

Results

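The clustered protocadherins are a family of adhesion genes that lie side by side on one mouse chromosome in 3 groups, called the alpha, beta and gamma clusters. Members were taken as the protein-coding genes of the deposited gene table whose symbols carry a cluster letter and a number. The rule returned 57 of the 48709 genes in the table, with 14 in the alpha cluster, 22 in the beta cluster and 21 in the gamma cluster. Rows with 2 identifiers carry the symbol Pcdha11, and the row with the identifier ENSMUSG00000007440, which RefSeq pairs with the symbol Pcdha10, is written with that identifier throughout. Pcdhgb8 has the type polymorphic pseudogene in the table, so the rule left it out, and it had at most 7 counts in any library.

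The study asked how prenatal exposure to nPM, a nano-sized fraction of traffic particulate matter, changes gene expression in newborn mice. Pregnant C57BL/6 dams breathed re-aerosolized nPM for 5 h on 3 days per week from gestational day 2 to birth, and control dams breathed filtered air in like chambers. The labels write the nPM concentration as 300 mg/m3, whereas the methods of the study express it in micrograms. Cerebral cortex and blood came from pups labelled as 3 to 5 days old, where the methods give day 5. Their strain label was C57BL/6J (C57BL/6NJ in the methods). There were 6 pups per exposure with 3 of each sex, and the labels do not give the litter of a pup.

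Each alpha and each gamma protein is made from one large variable exon, with its own promoter, spliced to a set of constant exons that the whole cluster shares, whereas each beta gene is essentially a single exon. Single neurons switch on a few of these promoters, a choice that involves CTCF, cohesin and DNA methylation, and the resulting combination of surface proteins binds only matching combinations, which is known for letting a neuron tell its own branches from those of its neighbours. The 5 C-type members, Pcdhac1, Pcdhac2, Pcdhgc3, Pcdhgc4 and Pcdhgc5, stand at the ends of the alpha and gamma clusters and are known to be used more uniformly across cells.

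In mm10 coordinates the alpha cluster ran from chr18:36930184 to 37187661, the beta cluster from 37264938 to 37524479 and the gamma cluster from 37661793 to 37841873, and all members were on the plus strand. In the Gencode annotation of this build, 2860 exon bases were common to every alpha member and 2116 to every gamma member. The median alpha member therefore had 2475 exon bases outside all other genes of either strand, of a total of 5206 to 7535 bases, while 20 of the 22 beta members shared no exon base on their own strand. The coding genes Gm42416, Gm37013 and Gm37388 and the processed transcript Gm38182, which lie in this region and share all of their exon bases with other genes, had 0 counts in all 24 libraries. Members are thus described mainly by reads from their variable exons. Gm26672, on the opposite strand, covers all unshared bases of Pcdhga10, which still had 295 to 470 counts per cortex library, and whether counting used strand was not stated.

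All 57 members were detected in each of the 12 cortex libraries, which held 22301409 to 33804371 counts with RNA integrity numbers of 9.4 to 9.9. The counts ranged from 3 for the weakest value of Pcdhb1 to 2162 for the strongest value of Pcdhgc3. Markers of cortical excitatory neurons, interneurons, and astrocytes and radial glia were counted in every cortex library, at 10 of 10, 9 of 9 and 9 of 9 genes. One library, control male V24, stood apart for the members: of the 6 control libraries it was the lowest for 29 of the 57 members, with 7 of 14 in alpha, 12 of 22 in beta and 10 of 21 in gamma. V24 also had the highest summed markers of the 12 libraries for excitatory neurons (1210 CPM, the reads of a gene relative to the library total), astrocytes and radial glia (2902 CPM), the oligodendrocyte lineage (744 CPM) and microglia (272 CPM). Another male control, V14, had a summed choroid plexus level of 32.9 CPM against 238 to 513 CPM in the other 11. The part of these differences in the results was not tested, and results that rest on V24 are given with and without it. In bulk tissue, fewer cells of a type and less RNA per cell cannot be told apart.

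Per length, C-type genes were the most abundant members of the alpha and gamma clusters. Levels were scaled by TMM, a library scaling that assumes most genes do not differ, and divided by the kilobases of exon that a member shares with no other gene of its strand. Pcdhac2 reached 19.03 ± 0.99 CPM per kb (SD, n = 12), Pcdhgc3 18.1 ± 1.2 and Pcdhgc4, a member that cortical interneurons are known to need for survival, 15.4 ± 1.0. Next came Pcdhga11, the highest gene that is not C-type, at 12.3 ± 0.91 CPM per kb. The other C-type genes were lower, with Pcdhgc5 at 4.46 and Pcdhac1 at 2.11 CPM per kb. The ranges of neighbours in this order overlapped for 54 of 56 pairs, so that the order of most adjacent members was not resolved beyond the spread between libraries. The exceptions were the step from Pcdhga11 down to Pcdhga3, at 7.69 CPM per kb, and the step down to Pcdhb1, the lowest member, at 0.107 CPM per kb.

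**Figure D1:**
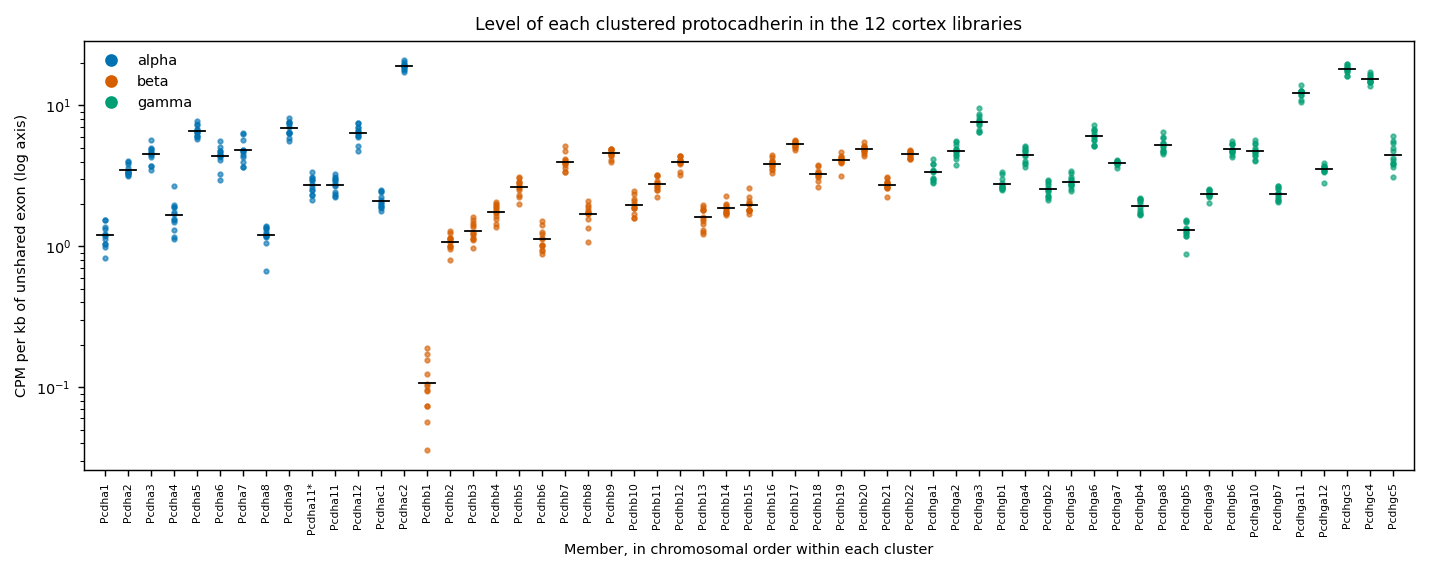
Level of each of the 57 members in 12 cortex libraries, in CPM per kb of exon sequence shared with no other same-strand gene, on a log axis. Points are libraries, lines are means, and Pcdha11* is ENSMUSG00000007440. Pcdhac2, Pcdhgc3 and Pcdhgc4 lie highest, at 15.4 to 19.03 CPM per kb, and Pcdhb1 lies lowest, at 0.107.

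Among the genes that are not C-type, the 12 alpha members had a median of 3.94 CPM per kb and ranged from Pcdha8 at 1.20 to Pcdha9 at 6.88. The 22 beta members had a median of 2.70, with Pcdhb17 highest at 5.32. The 12 gamma A members had a median of 4.61, and the 6 gamma B members had a median of 2.45, with Pcdhgb5 lowest at 1.30. The order of the clusters depended on the length used. With the whole length in the gene table the medians over all members were 1.77 for alpha, 2.56 for beta and 2.40 for gamma, and with the unshared length they were 3.94, 2.70 and 4.46. On the whole length the lowest alpha member was Pcdha4 at 0.143 CPM per kb, a gene with only 494 unshared bases.

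The spread between libraries of the same exposure differed among the members. The median coefficient of variation over the 6 control libraries was 15.04% in alpha, 10.8% in beta and 9.69% in gamma, where counting alone gives 5.76%, 5.33% and 5.22%. Without control V24 the medians were 10.9%, 9.06% and 8.03%. Over the 6 nPM libraries they were 11.3%, 12.3% and 9.95%. The control spread of Pcdhgc5 reached 26.4%, whereas that of its C-type neighbour Pcdhgc4 was 4.73% and that of Pcdhga7 was 2.51%, below its counting value of 5.25%.

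The summed level of each cluster was close in nPM and control cortex. Summed over its members, the alpha cluster measured 174.1 ± 5.4 CPM in nPM and 181.3 ± 13.6 in control (SD, n = 6 each). The beta cluster measured 268.8 ± 7.9 and 265.7 ± 14.4 CPM. The gamma cluster measured 353.2 ± 8.9 and 344.8 ± 5.1 CPM. Libraries of the exposure groups overlapped in all 3 sums. As a share of all member reads, alpha took 21.9 ± 0.7% in nPM and 22.9 ± 1.0% in control, beta 33.8 ± 0.5% and 33.5 ± 0.6%, and gamma 44.4 ± 0.7% and 43.6 ± 1.4%. The C-type genes took 25.2 ± 0.5% and 24.9 ± 1.5%.

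V24 set the low end of the control sums, with 158 CPM for alpha and 241 CPM for beta, and its C-type share was 27.7% against 23.9 to 25.1% in the other control libraries. The log2 ratio of the summed alpha level, nPM over control, was -0.06 with V24 and -0.10 without it, and that of the beta level was 0.02 and -0.01. By sequencing lane, the alpha sum was 172 CPM in nPM and 183 CPM in control in lane 2 (n = 4 each), and 178 CPM in both in lane 3 (n = 2 each). The 2 controls of lane 3 were V19, at 198.6 CPM, and V24, at 158.0 CPM.

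**Figure D2:**
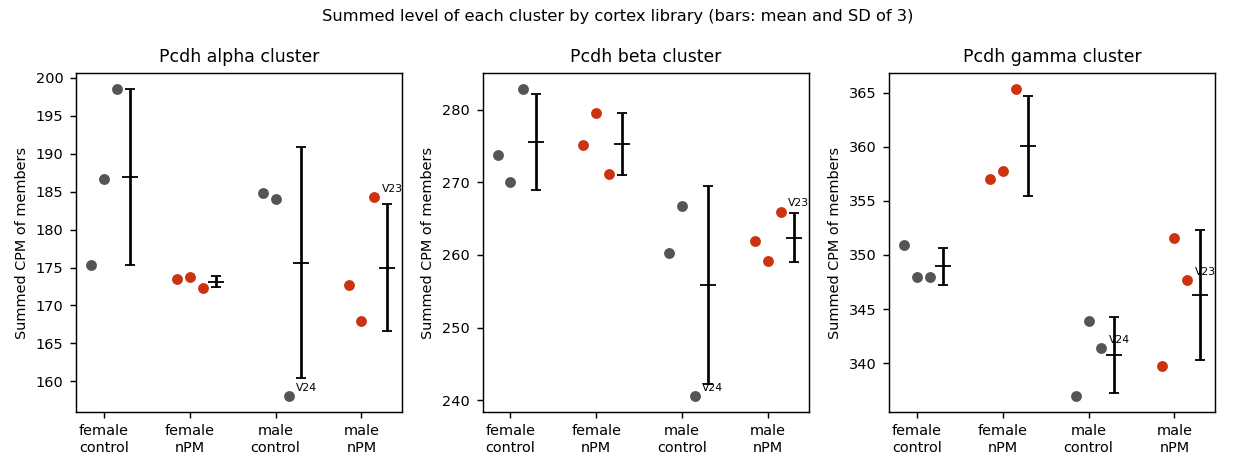
Summed CPM of the members of each cluster in the 12 cortex libraries, by sex and exposure. Points are libraries and bars are the mean and SD of 3, on axes that do not start at 0. In females the nPM alpha sums lie below and the nPM gamma sums above the controls, and V24 is the lowest male control for alpha and beta.

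No member passed the cutoff of the study, an unadjusted p under 0.005, in cortex of both sexes. The fit was edgeR's quasi-likelihood test with sex and RNA integrity as covariates, and 20857 genes, all 57 members among them, passed the filter. Of all genes tested, 0.614% were under 0.005. At an unadjusted p under 0.05 there were 2 of 57 members, against 5.67% of all genes, and no member had an adjusted p under 0.05 (lowest 0.844). DESeq2 and limma voom also gave 0 members under 0.005, and the same pair under 0.05. For 55 of 57 members the 95% interval of the log2 change lay between -0.5 and 0.5, so a change larger than that was not seen for those genes at this depth. No member had exposure groups that did not overlap, compared with 0.197% of all genes.

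The 2 members were Pcdhb7 and Pcdhgc4, and both had higher estimates in nPM. Pcdhb7 ranged from 13.3 to 17.9 CPM in nPM (median 14.1) and from 11.8 to 14.5 in control (median 13.1). The 2 highest libraries were nPM females V11 and V09, and the groups overlapped. Its log2 change was 0.19 ± 0.07 (SE, edgeR adjusted p = 0.844), and the exact two-sided permutation test of 6 against 6 libraries gave p = 0.0714. Pcdhgc4 ranged from 51.4 to 60.2 CPM in nPM (median 55.9) and from 47.9 to 55.4 in control (median 51.2). The nPM libraries V09, V15 and V20 lay above the highest control, V19, and the controls V10, V16 and V24 lay below every nPM library. Its log2 change was 0.12 ± 0.05 (SE, edgeR adjusted p = 0.856, exact permutation p = 0.0303). Pcdhb7 was no longer under an unadjusted 0.05 without nPM female V11 (log2 change 0.16), and Pcdhgc4 was not without control female V10 (log2 change 0.10).

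**Figure D3:**
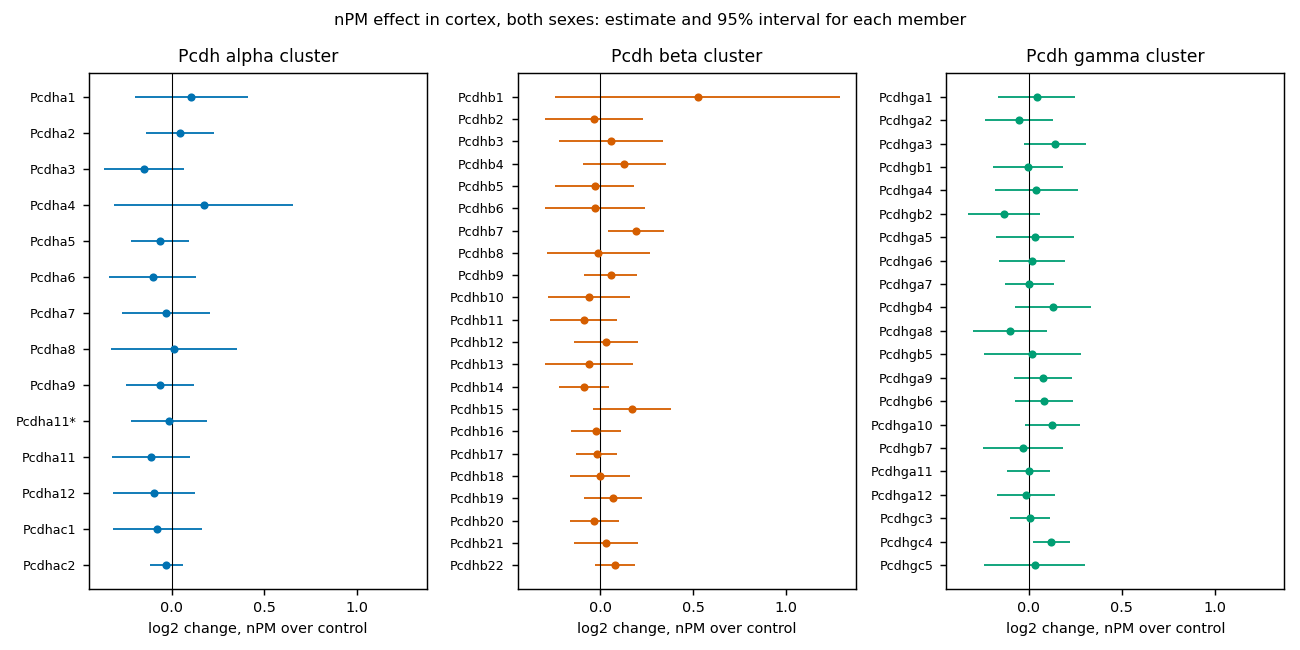
Estimated log2 change, nPM over control, with its 95% interval for each member in cortex of both sexes, by cluster and in chromosomal order. The intervals of Pcdhb7 and Pcdhgc4 lie above 0, all other intervals include 0, and Pcdhb1, the gene with the fewest counts, has the widest. Pcdha11* is ENSMUSG00000007440.

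The beta cluster was near balance, with 10 members estimated higher and 12 lower and a median log2 change of -0.01, against a median of -0.00 over all genes tested. Pcdhb15 ranged from 5.05 to 7.28 CPM in nPM (median 5.73) and from 4.73 to 5.69 in control (median 5.07), with a log2 change of 0.17 ± 0.10 (edgeR adjusted p = 0.875, exact permutation p = 0.0931). Pcdhb22 ranged from 26.1 to 29.8 CPM in nPM (median 28.5) and from 25.5 to 29.3 in control (median 26.7), with a log2 change of 0.08 ± 0.05 (edgeR adjusted p = 0.884, exact permutation p = 0.0952). The groups overlapped for both genes. Pcdhb22 shares exon bases with its neighbour Pcdhb21, so reads there may be lost from both.

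In the alpha cluster 4 members had higher and 10 lower estimates, with a median of -0.05 (-0.11 without V24). Pcdha3 ranged from 9.21 to 11.5 CPM in nPM (median 10.97) and from 8.56 to 14.1 in control (median 12.03), and changed by -0.15 ± 0.10 on the log2 scale (edgeR adjusted p = 0.885, exact permutation p = 0.190). Pcdha11 ranged from 10.53 to 14.3 CPM in nPM (median 11.8) and from 10.3 to 15.1 in control (median 13.3), and changed by -0.11 ± 0.10 (edgeR adjusted p = 0.903, exact permutation p = 0.310). Pcdha6 ranged from 6.77 to 10.9 CPM in nPM (median 10.03) and from 7.45 to 12.7 in control (median 10.48), and changed by -0.10 ± 0.11 (edgeR adjusted p = 0.911, exact permutation p = 0.390). The lowest nPM value of Pcdha6 came from male V13 and the lowest control value from male V24. None of the 14 passed 0.05.

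In the gamma cluster 14 members had higher and 7 lower estimates, with a median of 0.02. Without V24 the estimates were lower for 12 of the 21 (median -0.01). Pcdhga10 ranged from 10.53 to 14.9 CPM in nPM (median 13.4) and from 10.8 to 12.7 in control (median 12.1), with a log2 change of 0.13 ± 0.07 (edgeR adjusted p = 0.872, exact permutation p = 0.149). Pcdhga3 ranged from 18.8 to 24.8 CPM in nPM (median 20.4) and from 16.7 to 22.8 in control (median 18.9), with a log2 change of 0.14 ± 0.08 (edgeR adjusted p = 0.873, exact permutation p = 0.199). For both genes the nPM libraries reached higher than the controls but overlapped with them.

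Of the 5 C-type genes, Pcdhgc4 alone passed 0.05. Pcdhac2 measured 56.9 ± 3.0 CPM in nPM and 58.3 ± 3.1 in control (SD, n = 6 each), and its 95% interval of -0.12 to 0.06 on the log2 scale was among the narrowest of the family. Pcdhgc3 measured 61.4 ± 4.0 and 61.0 ± 4.1 CPM, with an interval of -0.10 to 0.11. Pcdhac1 measured 5.26 ± 0.65 and 5.54 ± 0.64 CPM, with an interval of -0.32 to 0.16. Pcdhgc5 measured 20.7 ± 3.0 and 20.3 ± 5.4 CPM, with an interval of -0.24 to 0.30. Controls of Pcdhgc5 ran from 14.2 CPM in male V16 to 28.0 CPM in male V24, so that the nPM libraries lay wholly inside the control range.

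**Figure D4:**
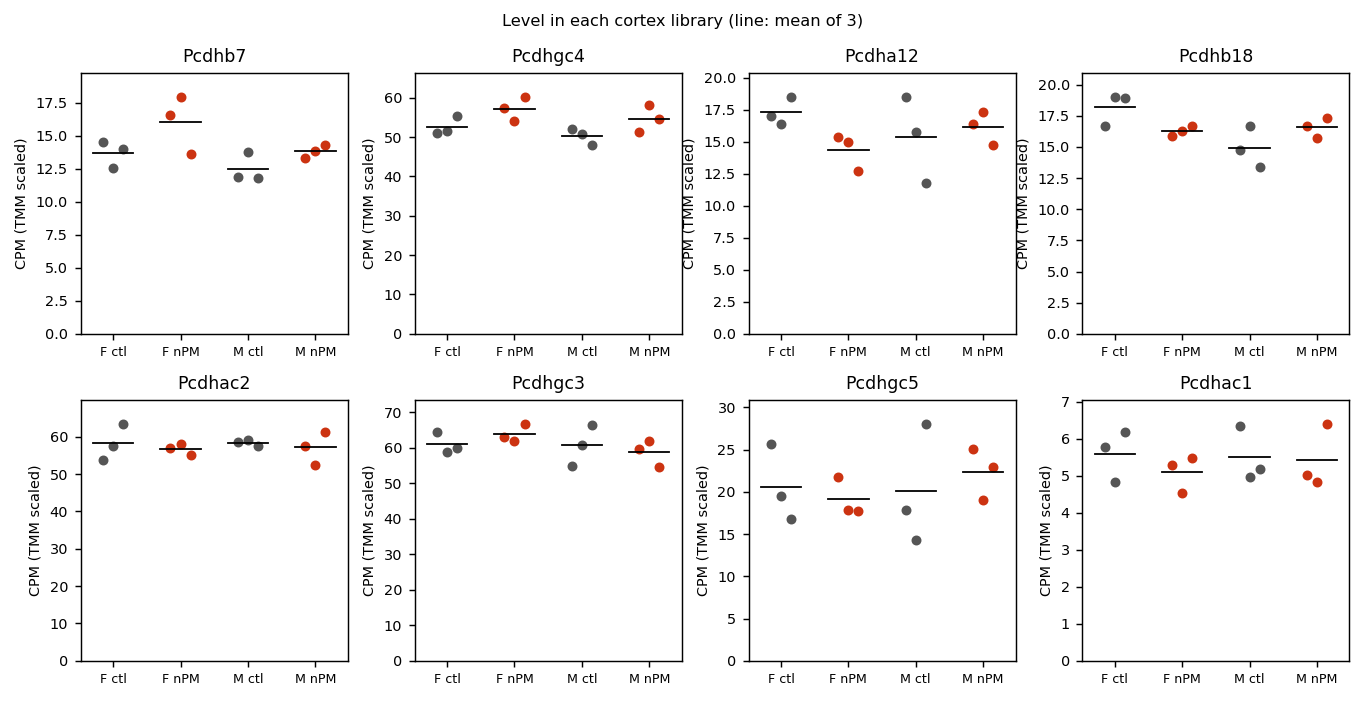
Level in each cortex library, in TMM-scaled CPM on axes that start at 0, for 8 members by sex (F, M) and exposure (ctl, control). Points are libraries and lines are means of 3. Pcdhgc4 and Pcdhb7 have higher nPM means in both sexes, and Pcdhgc5 spreads from 14.2 to 28.0 CPM among controls. Pcdha12 and Pcdhb18 have lower nPM means in females and higher ones in males. For Pcdha12 the higher male mean rests on control V24, at 11.8 CPM against 18.5 and 15.7 CPM in controls V14 and V16.

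The sexes were also fitted apart, with 3 nPM and 3 control libraries each. In female cortex 21731 genes were tested and no member was under an unadjusted p of 0.005, against 4.02% of all genes. Under 0.05 there were 5 of 57 members, against 15.4% of all genes, and 0 of 57 had an adjusted p under 0.05, against 1.11% of all genes. DESeq2 gave 1 member under 0.05. The alpha members Pcdha12 and Pcdha9 had lower estimates in nPM, and Pcdhb4, Pcdhb15 and Pcdhga10 higher ones. When each female library was left out in turn, Pcdhga10 was no longer under 0.05 in all 6 fits. Pcdha9 and Pcdhb15 were each no longer under it in 4 of the 6.

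Pcdha12 measured 15.3, 15.01 and 12.7 CPM in the nPM females V09, V11 and V20 and 16.99, 16.4 and 18.5 CPM in the control females V10, V12 and V19. All nPM values lay below all control values. Its log2 change was -0.30 ± 0.09 (edgeR adjusted p = 0.150). It was no longer under an unadjusted 0.05 without V19 or V20, nor by the contrast of the 12-library fit. Pcdhb4 measured 7.44, 7.34 and 7.62 CPM in the nPM females and 5.84, 6.07 and 6.41 CPM in the control females, with a log2 change of 0.28 ± 0.12 (edgeR adjusted p = 0.288). Pcdhb4 was no longer under an unadjusted 0.05 in 5 of the 6 fits that left out a library, the exception being that without V19, nor by DESeq2 or the contrast of the 12-library fit. In all, 8 of 57 members had female exposure groups that did not overlap, compared with 21.6% of all genes. They were Pcdha8, Pcdha12, Pcdhb14, Pcdhb18 and Pcdhgb5, lower in nPM, and Pcdhb4, Pcdhb15 and Pcdhga10, higher in nPM. Both the count under 0.05 and the count without overlap were below the share of all genes.

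The alpha estimates in females leaned to one side, with 12 of 14 lower in nPM and a median log2 change of -0.13, where 50.4% of all genes were lower. The beta cluster had 12 of 22 lower and the gamma cluster 11 of 21. The summed alpha level was 173.5, 173.7 and 172.3 CPM in the nPM females and 175.4, 186.7 and 198.6 CPM in the control females, 7.35% lower on average. The summed gamma level was 357, 358 and 365 CPM in the nPM females and 351, 348 and 348 CPM in the control females, 3.19% higher on average. Neither sum overlapped between exposures, as held for 21.6% of all genes in these female libraries. An exact permutation p of 3 against 3 libraries cannot fall below 0.10. The sums, unlike the estimates, were not adjusted for RNA integrity. The summed markers of cortical excitatory neurons were lower in the nPM females, like the alpha sum and unlike the gamma sum. They measured 1039, 1018 and 1028 CPM in the nPM females and 1063, 1114 and 1079 CPM in the control females, without overlap. All 10 markers were counted in every library, with 7 estimated lower and 3 higher in nPM females. In males the sums were 1075, 962 and 1072 CPM in nPM and 1117, 1072 and 1210 CPM in control, with overlap. There too 7 of the markers were estimated lower and 3 higher in nPM. Their part in the alpha and gamma values was not tested. The count of lower alpha estimates stayed between 10 and 12 when each female library was left out in turn. Members of one cluster share a library and neighbouring sequence, so their estimates are not independent.

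In male cortex 21670 genes were tested. No member was under 0.005, against 0.318% of all genes, and 1 was under 0.05, against 4.51% of all genes. It was Pcdhb1, with 15, 9 and 10 counts in the nPM males V13, V15 and V23 and 4, 6 and 3 counts in the control males V14, V16 and V24. Its log2 change of 1.32 ± 0.58 (edgeR adjusted p = 0.962) rests on the fewest reads of any member. It did not pass under DESeq2. In males 4 of 57 members, Pcdhb1, Pcdhgb4, Pcdhgb6 and Pcdhga8, had exposure groups that did not overlap, compared with 9.17% of all genes. The alpha estimates were higher in nPM for 12 of 14 members (median 0.08), but for 5 of 14 without V24 (median -0.02). The summed alpha level was 0.392% lower in nPM than in control males, and the exposures overlapped. Unlike the estimates, the sums were not adjusted for RNA integrity. It was 172.7, 168.0 and 184.3 CPM in the nPM males V13, V15 and V23. The control males V14, V16 and V24 measured 184.9, 184.0 and 158.0 CPM, so the closeness of the 2 means rests on V24.

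**Figure D5:**
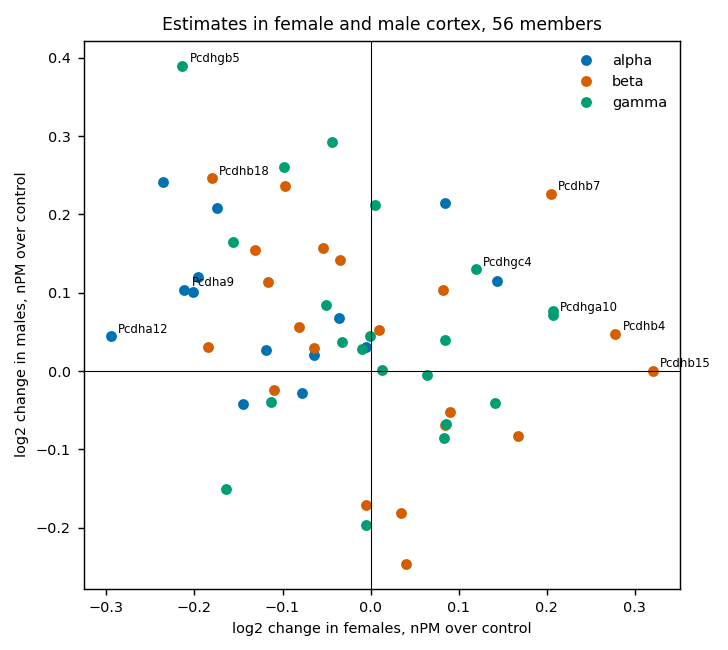
Estimated log2 change in female cortex (x axis) against that in male cortex (y axis) for 56 members, coloured by cluster; Pcdhb1, at 1.32 in males, lies off the scale and is left out. Most alpha members lie at the upper left, lower in nPM females and higher in nPM males, and the male side of this depends on control V24.

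The difference between the sexes in the nPM effect was tested as an exposure-by-sex term over the 12 libraries. No member was under 0.005, against 1.35% of all genes, and 2 of 57 were under 0.05, against 9.68% of all genes. These were Pcdhb18 (0.38 on the log2 scale, edgeR adjusted p = 0.403) and Pcdhgb5 (0.52, edgeR adjusted p = 0.491), where a positive term means a higher nPM effect in males. Pcdhb18 measured 15.9, 16.3 and 16.7 CPM in the nPM females against 16.7, 19.01 and 18.9 CPM in the control females, and 16.7, 15.7 and 17.3 CPM in the nPM males against 14.7, 16.7 and 13.4 CPM in the control males. The female groups did not overlap and the male groups did. Pcdhgb5 measured 6.17, 5.74 and 5.48 CPM in the nPM females against 6.87, 6.26 and 6.99 CPM in the control females. In males it measured 5.45, 6.07 and 7.05 CPM in nPM against 5.72, 5.93 and 4.06 CPM in control, the lowest being V24. Pcdhgb5 was no longer under an unadjusted 0.05 in 7 of the 12 fits that left out a library, among them that without V24. Pcdhb18 stayed under it in all 12. The term was positive for 13 of 14 alpha members with a median of 0.12, for 12 of 22 beta members and for 10 of 21 gamma members, and 49.7% of all genes had a positive term. The alpha median was 0.07 without V24. The single-sex estimates use the same libraries as this term and are no separate evidence for it.

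Between males and females regardless of exposure, no member was under 0.005, against 0.518% of all genes. Under 0.05 there were 7 of 57 members, all lower in males, against 6.09% of all genes, and the lowest adjusted p was 0.797. The smallest p was that of Pcdha11 (ENSMUSG00000007440), with a log2 difference of -0.31 ± 0.11, male over female (edgeR adjusted p = 0.797). The other members were Pcdha7, Pcdhb6, Pcdhb10, Pcdhb16, Pcdhga10 and Pcdhga11. Estimates were lower in males for 43 of 57 members with a median of -0.06, where 51.7% of all genes were lower. By cluster they were lower for 19 of 22 in beta, 9 of 14 in alpha and 15 of 21 in gamma. Without V24 these counts were 18, 8 and 14. Leaving out each library gave 3 to 8 members under 0.05, and Pcdhga11 was no longer under it in 10 of the 12 fits. Estimates of neighbouring members are not independent. Marker lists lower in males included subcortical neurons (8 of 8 tested), choroid plexus (7 of 7) and interneurons (7 of 9). Markers of microglia (5 of 6) and red cells (5 of 7) were mostly higher. Their part was not tested.

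Genes that act with the clusters were counted from lists. Of 22 factors for promoter choice and chromatin, such as CTCF and the cohesin subunits, 0 passed 0.05 in cortex of both sexes. The smallest p was that of the cohesin subunit gene Smc1a (log2 change 0.08 ± 0.04, edgeR adjusted p = 0.862). In females 3 of the 22 were higher and 1 lower at 0.05, against 15.4% of all genes, and none was under 0.005. Of 24 genes for partners, signalling and processing of the proteins, 2 were lower and 0 higher at 0.05 in the fit of both sexes. In that fit 5.67% of all genes passed 0.05. The 2 included Cyfip2, which encodes a subunit of the WAVE actin regulator (-0.12 ± 0.04, edgeR adjusted p = 0.844). In females 4 were higher and 4 lower at 0.05, against 15.4% of all genes, with the smallest p for the GTPase gene Rac1 (0.16 ± 0.05, edgeR adjusted p = 0.168).

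Of 12 non-clustered protocadherins, Pcdh8, an adhesion gene regulated by neuronal activity, was under 0.005 in the fit of both sexes (0.22 ± 0.06, edgeR adjusted p = 0.598). In that fit 0.614% of all genes were under 0.005, and Pcdh8 was not under it in either sex alone. Pcdh15, known from the hair cells of the inner ear, was under 0.005 in females (-0.26 ± 0.06, edgeR adjusted p = 0.0621). Of 18 classical cadherins, Cdh4 was under 0.005 with a higher level in nPM females (0.24 ± 0.06, edgeR adjusted p = 0.0959) and nPM males (0.43 ± 0.11, edgeR adjusted p = 0.962). Cdh3 was under it with a lower level in males than in females (-1.13 ± 0.33, edgeR adjusted p = 0.797). The shares of all genes under 0.005 were 4.02% in females, 0.318% in males and 0.518% between the sexes. No gene of the 4 lists had an adjusted p under 0.05 in any of the 5 comparisons. Between the beta and gamma clusters lies Taf7, a gene for a subunit of the transcription factor TFIID on the opposite strand. Its log2 change was 0.14 ± 0.06 in the fit of both sexes (edgeR adjusted p = 0.862). The antisense transcripts Gm26672 and BC037039, which overlap gamma members, did not pass 0.05 in that fit.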

How the data were processed

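RNA of 12 cortex and 12 blood samples was made into ribosomal-RNA-depleted libraries. The authors checked and trimmed reads (FastQC, Trimmomatic), aligned them to mm10 with HISAT2 and counted them per gene of Gencode M11 with featureCounts 1.5.0-p3, and the deposited values are these raw counts. Gene lengths in bases were deposited with them, as was a mean RPKM made by the authors, which was not used. Here cortex counts were tested in R 4.3.3 with edgeR 4.0.16 (quasi-likelihood F test, TMM scaling, prior count 0.5, genes with no library at 0, Benjamini-Hochberg adjustment over all genes), with RNA integrity as covariate. The exact permutation test over single members used all 924 splits of 6 against 6 libraries, which allow no p below 0.00216. DESeq2 1.42.0, limma 3.58.1 (voom), other scalings and filters and leaving out each library were alternatives. The scripts were tested on simulated data. Members with the 3 smallest p values per cluster and the C-type members were named by rule, and those under 0.05 in 1 sex, in the sex term or between the sexes were named after their values were seen. The members and lists were chosen with earlier results of these data known. P-values measure the spread between these pups and treat them as independent, although the exposure was given to dams. The methods describe the 3 pups per sex and exposure as coming from different litters. Whether a male and a female pup shared a dam is not given. Blood was not tested, since most blood libraries held few reads of the members.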

Additional observations from a re-analysis of the deposited data

Results flagged for a closer look

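In blood, which the comparisons did not use, 2 libraries held many more reads of the members than the other 10, which had 2 to 43 counts. Control female V2 had 1674 counts, of which 15 came from alpha, 567 from beta and 1092 from gamma, with Pcdhgc3 at 338, so that alpha took 0.896% of its member reads against 21.4 to 23.9% in cortex controls. The summed markers of astrocytes and radial glia (59.7 CPM) and of cortical excitatory neurons (41.6 CPM) were also highest in V2, and its red cell markers lowest (517538 CPM). Blood of nPM male V5 had 194 counts, with 40, 45 and 109 in the 3 clusters, and astrocyte and radial glia markers at 32.7 CPM. The part of these markers in the counts was not tested.

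Of 34 groups of 6 cortex libraries examined, 3 had a library far from the others by Dixon's criterion, and chance gives about 1 in 20. These were Pcdha6 in nPM male V13 (6.77 CPM against 9.45 to 10.9), the summed alpha level in nPM male V23 (184 CPM against 168 to 174) and the C-type share in control male V24 (27.7% against 23.9 to 25.1%).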

How the results depend on the processing

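No paired analysis was possible because the labels give no replicate numbers shared by the groups. No member reached an adjusted p under 0.05 in any alternative. Members under an unadjusted 0.005 numbered 0 in the 5 comparisons as reported, but 1 in females (Pcdha12) and 1 between the sexes (Pcdha7) when genes with a count in any library were kept, and 1 between the sexes (Pcdha7) without RNA integrity. Members under 0.05 in females (5 reported) numbered 1 by DESeq2, 2 by the contrast of the 12-library fit, 4 with RLE size factors, 6 without RNA integrity, 7 by limma voom and 7 with the loosest filter. In males (1 reported, Pcdhb1) they numbered 0 by DESeq2, 0 by filterByExpr, 2 by limma voom and 2 by the 12-library contrast. With a minimum of 10 counts, a filter that left Pcdhb1 untested, they numbered 0. For the sex term (2 reported) they numbered 4 with the loosest filter and 1 without RNA integrity. With sequencing lane as a covariate they numbered 2 in both sexes together (Pcdhb7 and Pcdhgc4, as reported), 3 for the sex term (Pcdha12 beside Pcdhb18 and Pcdhgb5) and 6 between the sexes (7 reported). The cause of the other shifts was not tested.

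Leaving out each library in turn, members under 0.005 ranged from 0 to 1 in both sexes together (1, Pcdhb7, without V10), 0 to 1 in females (1 without V12 or V20), 0 to 2 for the sex term (2, Pcdha7 and Pcdhb18, without V20) and 0 to 1 between the sexes (1 without V20 or V23). Members under 0.05 ranged from 1 to 4 in both sexes together, 2 to 9 in females (9 without V10), 0 to 3 in males, 1 to 6 for the sex term (6 without V14) and 3 to 8 between the sexes. Gamma members with a lower estimate in both sexes ranged from 5 to 12 (12 without V24), and alpha members with a higher estimate in males from 5 to 12 (5 without V24). The log2 change of Pcdhgc3 ranged from -0.021 to 0.041 and that of Pcdhgc5 from -0.052 to 0.15, so the sign of each depended on the library left out. With unshared instead of whole length, the median level was 3.94 CPM per kb in alpha and 4.46 in gamma. Counts of 3 to 15 limit Pcdhb1, and 3 libraries per sex and exposure limit the single-sex results.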
